A study of Mus musculus with 4 samples.

Results

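Gene expression in mast cells sorted from the small intestine was set against that in bone marrow-derived mast cells (BMMCs) cocultured with the Notch ligand Dll1, to describe what the culture model still lacked of the tissue cell. All cells came from BALB/c mice. Marrow cells had been turned into BMMCs over 3 to 4 weeks with 10 ng/ml each of mouse stem cell factor and interleukin-3. The next 6 days were spent without further additions (control), in 5 ng/ml TGF-beta1, or on Chinese hamster ovary (CHO) cells that displayed mouse Dll1. The Dll1 cells were picked out of the coculture with magnetic beads against c-Kit (CD117). The intestinal cells came from the lamina propria of untreated mice, and flow sorting kept those with both c-Kit and the IgE receptor FceRI. No array of BMMCs on CHO cells without Dll1 was analysed here. The ages of the mice, and whether animals were pooled, were not found in the sources used here. The comparison used 2 of the 4 arrays, 1 for each group, and the control and TGF-beta1 arrays are quoted only to place a level. It covered the 22180 genes that the platform annotation ties to a probe set with 1 gene symbol.

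Mast cells are granule-filled cells that carry the IgE receptor FceRI and the stem cell factor receptor Kit. In mice, mucosal mast cells of the gut store the chymases Mcpt1 and Mcpt2, whereas connective tissue mast cells store Mcpt4, Cma1 (mast cell protease 5), tryptases and heparin. Notch receptors are cut at the membrane when a neighbouring cell presents a ligand such as Dll1. The freed intracellular domain joins the DNA-binding protein RBPJ and switches on genes of the Hes and Hey families. The coculture supplies that ligand, while the gut also supplies TGF-beta, epithelium, microbial products and low oxygen.

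The values were log2 signals between 4.13 and 13.14, and each gene was compared only with itself across arrays. For each array, background was taken as reaching up to the 95th percentile of 1443 probe sets for receptors of odours, pheromones and tastes. This limit was 5.13 for the Dll1 and 5.11 for the intestinal array, and 12331 and 12139 genes lay above it. A gene was called different when either array or both put it above the limit and it differed by at least 2-fold, with values under the limit raised to it. A fold that rests on such a raised value is a bound and is given as "at least". With 1 array for each group there was no replicate error and no test, so each difference is between these arrays. For 327 genes, both of 2 probe sets lay above background on the 2 arrays. The gap between their intestinal minus Dll1 differences had a standard deviation of 0.55. That gap carries the scatter of both probe sets and gauges the array, but no spread between cultures or animals. Tissue digestion and sorting belong only to the intestinal sample, and CHO cells and bead selection only to the Dll1 sample. Their effects and those of cell origin cannot be told apart. Both samples carried the defining mast cell markers. Kit read 12.54 with Dll1 and 11.75 in intestinal cells, Fcer1a 12.39 and 11.66, Ms4a2 10.42 and 9.98, Cpa3 13.11 and 12.76, and Gata2 9.86 and 10.41. Each of these genes differed by less than 2-fold. Both samples were selected on c-Kit, and the intestinal one on FceRI as well. High Kit on both arrays, and high Fcer1a and Ms4a2 on the intestinal array, could follow from that selection.

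The Dll1 culture and the intestinal cells were close over most of the genome. Of 13035 genes above background on at least 1 of these arrays, 12032 (92.3%) differed by less than 2-fold and 1003 (7.69%) by at least 2-fold, with a median difference of -0.03. In the intestinal cells 464 genes (3.56%) were at least 2-fold higher and 539 (4.14%) at least 2-fold lower. At least 4-fold apart were 201 genes (1.54%), of which 86 (0.66%) were higher and 115 (0.882%) lower. Of the 464 higher genes, 58 were below background on all 3 BMMC arrays, so no culture tested showed them. Of the 539 lower genes, 47 were below background in intestinal cells and above it on all 3 BMMC arrays. A further 17 lower genes were above background on the Dll1 array alone. The plot of intestinal against Dll1 levels shows both arms of genes that left the diagonal.

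**Figure D1:**
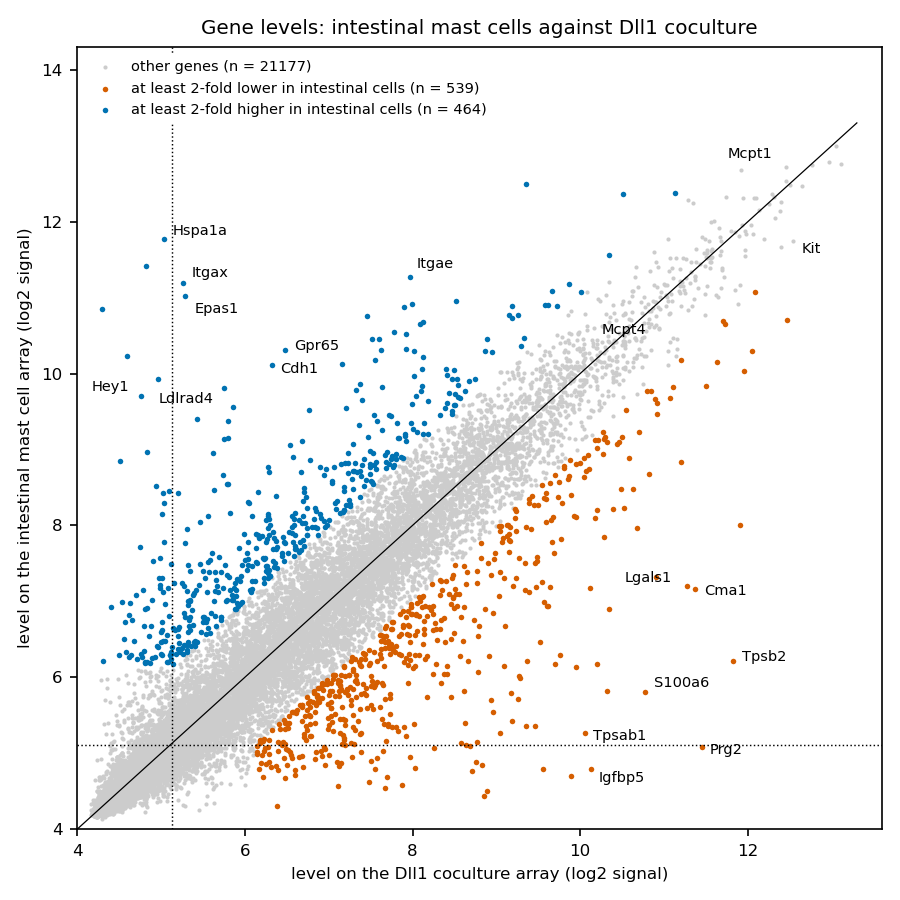
Level of each of 22180 genes on the intestinal array (vertical, log2 signal) against the Dll1 array (horizontal, log2 signal), 1 array for each group. Blue points are the 464 genes at least 2-fold higher and orange points the 539 at least 2-fold lower in intestinal cells; the solid line marks equal levels and the dotted lines the background limits. Hspa1a, Itgax, Epas1 and Hey1 rise from near background, while Tpsb2, Tpsab1, Prg2 and S100a6 lie far below the line.

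Granule proteases divided into those that reached the tissue level in the Dll1 culture, those that stayed short of it and those that were low in the tissue cell. Of 20 proteases measured, 5 were at least 2-fold higher and 5 lower in intestinal cells (26.3% higher and 26.3% lower of the 19 tested), against 3.56% higher and 4.14% lower of all genes tested. The mucosal chymase Mcpt1 read 4.82, 12.41, 12.46 and 12.72 on the control, TGF-beta1, Dll1 and intestinal arrays, an order kept for the levels below. Mcpt2 read 5.75, 12.35, 11.74 and 12.33, and the connective tissue chymase Mcpt4 read 4.53, 5.04, 10.15 and 10.41. For these chymases the Dll1 and intestinal levels lay within 0.59 of each other. Cathepsin G (Ctsg), a granule protease shared with neutrophils, read 5.41, 5.93, 8.70 and 8.64, so again the Dll1 level matched that of the tissue to within 2-fold. Mcpt8, a protease best known from basophils, differed by 0.04 between these arrays.

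Granzyme A (Gzma), a tryptic protease of cytotoxic granules, read 4.62, 4.50, 7.92 and 10.33, which put intestinal cells 5.29-fold above the Dll1 level. Granzyme C (Gzmc) read 4.51, 4.49, 6.08 and 8.12 and was 4.11-fold higher. Both genes were under background in the control and TGF-beta1 cultures and took part of the step to the tissue level with Dll1. Mcpt9, a chymase of the same gene cluster, stayed below background in all cultures, at 4.54, 4.55 and 4.70, and read 7.08 in intestinal cells (at least 3.87-fold higher). Mcpt-ps1, a pseudogene, was 2.37-fold higher and Gzmk at least 2.17-fold higher. Gzma also stands on the list of T cell markers given below, and how much of these granzyme signals came from other cells was not tested. In bulk RNA, fewer cells of a type and less RNA in each cell cannot be told apart.

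The tryptases ran the other way. Tpsb2 read 11.55, 11.78, 11.83 and 6.21 and was 49.1-fold lower in intestinal than in Dll1 cells, and Tpsab1 read 8.25, 11.81, 10.05 and 5.26 and was 27.7-fold lower. Cma1 read 12.12, 11.98, 11.37 and 7.16, a difference of 18.5-fold. All cultures held these connective tissue proteases well above the intestinal level, and for Tpsab1 both additions put the culture further from it. Elastase (Elane) and proteinase 3 (Prtn3), proteases of neutrophil precursors, were at least 12.5-fold lower and 5.08-fold lower in intestinal cells. Chymases of this family resemble each other in sequence and can share probes, which makes the level of any 1 of them uncertain. Cpa3 lay near the top of the scale on every array, where a difference may be hidden.

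**Figure D2:**
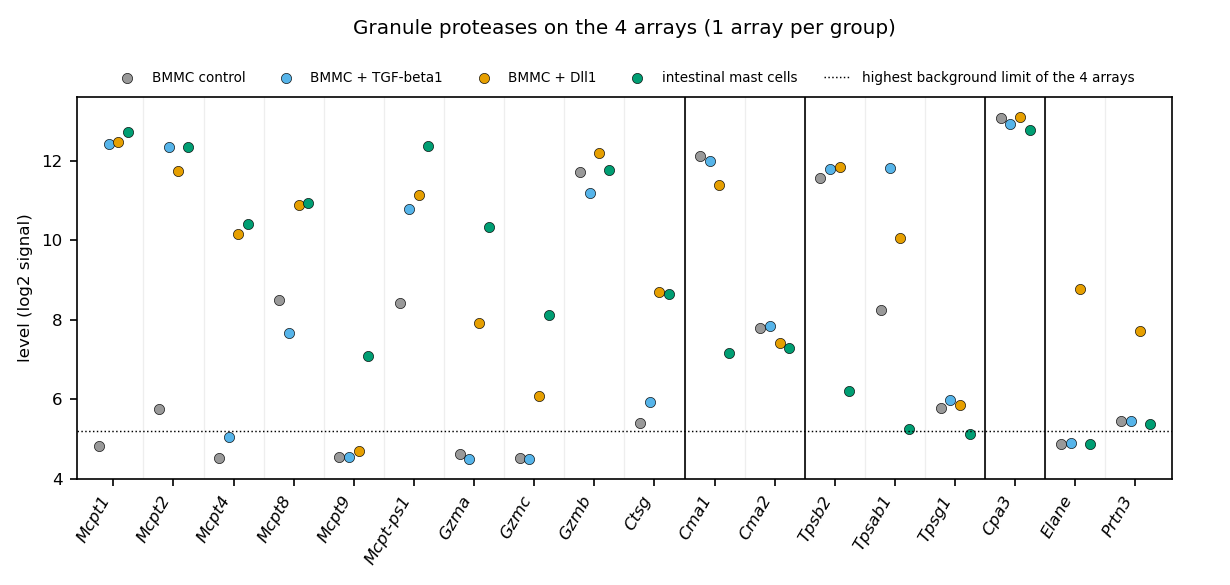
Levels (vertical, log2 signal) of 18 granule proteases on the control, TGF-beta1, Dll1 and intestinal arrays, 1 point for each array; the dotted line is the highest background limit of the 4 arrays. Mcpt1, Mcpt2, Mcpt4 and Ctsg show Dll1 and intestinal points side by side, Gzma and Gzmc a Dll1 point part of the way up, and Cma1, Tpsb2 and Tpsab1 an intestinal point far below the cultures.

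Other genes were far from the control on both arrays and less than 2-fold apart between them. Cd7, a surface protein of lymphoid cells, read 5.50, 5.14, 10.20 and 10.05. The MHC class II chains H2-Ea and H2-Ab1, which present antigen to helper T cells, read 4.70, 4.50, 9.05 and 8.99 and 5.90, 6.07, 8.63 and 8.69. Over the 14 class II genes measured, 11 of them above background on either array, the median difference was 0.00. The co-stimulatory ligand Cd80 (at least 3.6-fold higher) and the class II modifier H2-Oa (2.65-fold lower) were the members past 2-fold. They made 9.09% higher and 9.09% lower of the 11 tested. The immediate early genes Egr1, Dusp1, Junb, Dusp5 and Csrnp1 also belonged to this set, with Egr1 at 5.53, 5.84, 10.37 and 10.59 and Dusp1 at 6.38, 6.26, 11.35 and 12.25. Among genes that were low on both arrays, the serotonin transporter Slc6a4 read 7.59, 4.91, 5.16 and 5.06 and Ddc, the decarboxylase that makes serotonin and dopamine, read 8.17, 7.31, 6.09 and 5.30. The GTPase Gbp4 read 9.31, 7.71, 5.71 and 6.49 and the noncoding RNA Neat1 9.33, 8.99, 6.36 and 7.23. The clotting factor subunit F13a1, at 7.63, 8.65, 5.12 and 4.79, was below background with Dll1 as well as in the tissue.

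Several mast cell identity genes were lower in the intestinal cells. Of 25 measured members, 1 was at least 2-fold higher and 7 lower (4.17% higher and 29.2% lower of the 24 tested), with a median of -0.59 against -0.03 over all genes tested. Here and below, the members tested are those above background on either array, and a list's percentages are over them. A list's median is over all members measured, those below background on both arrays included. The median over all genes measured was -0.03 too. A member that passed on 1 array alone had to be higher there. Each percentage is to be read against the 3.56% higher and 4.14% lower of all genes tested. The largest difference was in Cd200r3, an activating receptor of mast cells and basophils, which read 8.91, 8.80, 8.58 and 5.13. Ndst2, an enzyme that sulfates heparin, read 11.21, 10.93, 10.49 and 8.48 and was 4.04-fold lower. Cyp11a1, the side-chain cleavage enzyme of steroid synthesis, was 3.4-fold lower, and the adenosine receptor Adora3 2.73-fold lower. The adaptor Lat2, the vesicular amine transporter Slc18a2 and the lipoxygenase Alox5 were 2.47-fold, 2.43-fold and 2.02-fold lower. The other probe set of Alox5 differed by -0.71, under 2-fold. Rgs13, a brake on G protein signalling, was the member that was higher (2.68-fold). Serglycin (Srgn), the granule proteoglycan core, read 11.57 with Dll1 and 11.53 in intestinal cells.

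Among 34 transcription factors of the lineage, 2 were at least 2-fold higher and 1 lower (6.45% higher and 3.23% lower of the 31 tested), near the shares over all genes and with a median of -0.04. Prdm1 (Blimp-1), a repressor used by tissue-resident lymphocytes, was below background in all cultures and read 6.40 in intestinal cells (at least 2.42-fold higher). Runx3 was 2.24-fold higher, while Id2, an inhibitor of E proteins, was 3.14-fold lower. Gata1 and Mitf read 6.62 and 8.29 in intestinal cells and 7.62 and 9.04 with Dll1, both less than 2-fold apart.

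Integrins and other adhesion molecules held some of the widest gaps. Of 25 integrin chains, 3 were at least 2-fold higher and 2 lower in intestinal cells (15% higher and 10.0% lower of the 20 tested). Itgax (CD11c), a beta-2 integrin partner, read 4.86, 5.22, 5.27 and 11.19, hence near background in every culture and 60.7-fold higher in the intestinal sample. Itgax also stands on the list of macrophage and dendritic cell markers below, and the part of such cells in its signal was not tested. Itgae (CD103), which pairs with Itgb7 to hold cells to epithelial E-cadherin, read 5.57, 8.84, 7.97 and 11.28. The TGF-beta1 culture read closer to the tissue than the Dll1 culture did, and the Dll1 level was 9.91-fold short of it. Its partner Itgb7 read 9.66 with Dll1 and 9.62 in intestinal cells. Itga7, a laminin receptor chain, was 2.18-fold higher. Itgb3, the beta-3 chain that binds vitronectin and fibrinogen, read 7.86, 6.85, 9.26 and 5.71 and was 11.7-fold lower. Itga4, the chain that binds VCAM-1 and MAdCAM-1, was 2.22-fold lower, although its level of 8.89 lay above the control level of 7.21.

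Among 26 other adhesion molecules, 4 were at least 2-fold higher and 5 lower (18.2% higher and 22.7% lower of the 22 tested). E-cadherin (Cdh1) read 6.16, 7.57, 6.32 and 10.12 and was 13.9-fold higher. Its other probe set read 4.87 with Dll1 and 5.84 in intestinal cells, a difference of 0.97, so the size of the Cdh1 gap is uncertain. Cdh1 also stands on the list of epithelial markers below, and the part of epithelial cells in its signal was not tested. The hyaluronan receptor Cd44 and Icam1 were 2.62-fold and 3.48-fold higher. The immunoglobulin-like molecule Cadm1, through which cultured mast cells attach to nerves and fibroblasts, and its relative Cadm3 read 9.91, 9.08, 9.46 and 5.36 and 9.80, 9.72, 9.19 and 5.43. Both were high in all cultures and close to background in the intestinal cell. Gpm6a and L1cam, molecules best known from neurons, were 12.3-fold and 9.36-fold lower. The plot of the genes farthest from all cultures shows the same split.

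**Figure D3:**
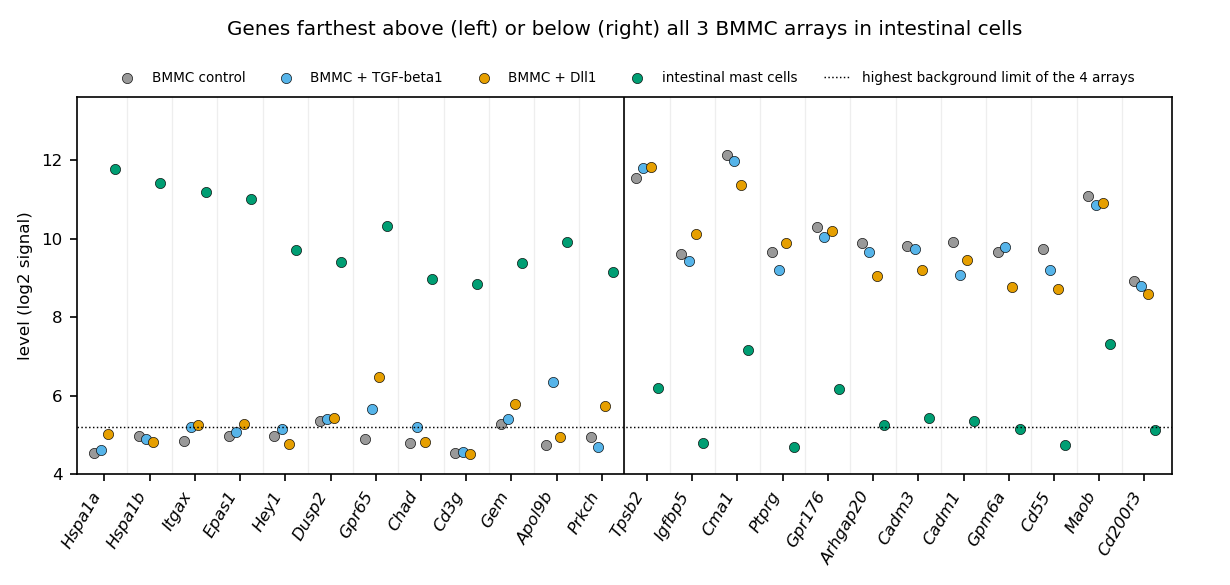
Levels (vertical, log2 signal) on the 4 arrays of the 12 genes whose intestinal level lay farthest above the highest BMMC array (left) and the 12 farthest below the lowest (right), 1 point for each array. The genes were chosen for these gaps, so their separation is a description. Hspa1a, Itgax, Epas1 and Hey1 sit near background in all cultures, and Tpsb2, Igfbp5, Cma1 and Ptprg are high in all of them.

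Several genes that mark tissue-resident lymphocytes were higher in the intestinal cells. Of 22 measured, 9 were at least 2-fold higher and 1 lower (45.0% higher and 5.0% lower of the 20 tested), with a median of 0.95. The chemokine Xcl1 was at least 5.13-fold higher, and the signalling brakes Rgs1 and Rgs2 were 2.86-fold and 2.48-fold higher, although the other probe set of Rgs2 differed by 0.67, under 2-fold. The nuclear receptors Nr4a1, Nr4a2 and Nr4a3, 3.59-fold, 2.56-fold and 5.95-fold higher, also belong to the immediate early list. Cd69, a retention receptor, read 9.22, 8.82, 11.29 and 12.28, and its 1.99-fold difference fell just under the limit of 2-fold. The lipid receptor Gpr34 was the member that was lower (4.37-fold). T cell markers also differed between these arrays, as given below, and their part in this list was not tested.

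The Notch pathway itself was not uniformly higher in either sample. Of 46 measured genes, 2 were at least 2-fold higher in intestinal cells and 7 lower (4.76% higher and 16.7% lower of the 42 tested), with a median of -0.11. The target gene Hey1, a transcriptional repressor, read 4.99, 5.16, 4.76 and 9.71. It was below background in all cultures, the Dll1 coculture included, and was at least 23.9-fold higher in the tissue cell. Hes1, the best known target, read 6.03, 5.85, 7.01 and 7.51, a gap of 0.51 between Dll1 and tissue. Nrarp, a target that feeds back on Notch, read 5.31 with Dll1 and 5.39 in intestinal cells, and Heyl and Hes5 were also low on both arrays (Heyl 5.56 and 5.82, Hes5 5.18 and 5.20).

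Among the receptors, Notch1 read 6.25, 6.43, 6.25 and 7.78 and was 2.9-fold higher, whereas Notch2 read 10.35 with Dll1 and 10.42 in intestinal cells. Rbpj, the DNA-binding partner, read 9.20 with Dll1 and 8.86 in intestinal cells. Lfng, which adds sugars that tune ligand choice, read 8.43, 8.29, 7.41 and 5.92 and was 2.81-fold lower. The E3 ligase genes Dtx4 and Dtx3, the co-activator Maml3 and the repressor Hey2 were 4.26-fold, 2.11-fold, 2.35-fold and at least 2.25-fold lower. Il2ra, the alpha chain of the interleukin-2 receptor and a Notch target in T cells, was 4.02-fold lower. The ligand Dll1 was detected only on the array of that coculture (7.10), and its other probe set read 5.13. The CHO cells carried this gene, and how much of the signal was theirs was not tested. In the promoter windows of this list, the letters TGGGAA on either strand, the core of the RBPJ site, were in 28.6% of 42 windows against 25.6% of 32851 windows of all genes. Some windows overlap, and by gene 11 of the 34 members with a window held a match.

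TGF-beta pathway genes included several of the wider gaps, although the list median was -0.03. Of 46 measured, 8 were at least 2-fold higher in intestinal cells and 3 lower (19.0% higher and 7.14% lower of the 42 tested). Ldlrad4, which restrains signalling by TGF-beta, read 5.63, 7.43, 5.86 and 9.55 and was 12.9-fold higher. Skil (SnoN), another inhibitor that TGF-beta itself induces, read 5.77, 7.09, 5.79 and 8.55. For both genes the TGF-beta1 culture read above the Dll1 culture and below the tissue. Smad7 was 2.39-fold higher, Pmepa1 2.84-fold higher and the repressor Tgif1 3.3-fold higher. Rhob and Gadd45b, 6.78-fold and 3.77-fold higher, stand on the immediate early list as well. The receptor Tgfbr1 and the ligase Smurf1 were 2.18-fold and 2.73-fold lower. Among the signal carriers, Smad2 read 8.40 with Dll1 and 7.86 in intestinal cells and Smad4 8.55 with Dll1 and 8.47 in intestinal cells. Ltbp4, which tethers latent TGF-beta to the matrix and was not on the list, read 4.76, 4.83, 4.93 and 8.52 and was at least 10.5-fold higher.

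Epas1 (HIF-2alpha), a transcription factor that oxygen destabilises, read 4.97, 5.09, 5.28 and 11.02. It was thus near background in every culture and 53.4-fold higher in intestinal cells. Of 31 hypoxia and glycolysis genes measured, Epas1 included, 2 were higher and 3 lower (6.9% higher and 10.3% lower of the 29 tested), with a median of -0.29. Ddit4 was 2.17-fold higher, while Ndrg1, the aldolase Aldoc and the mitophagy receptor Bnip3 were 4.13-fold, 4.02-fold and 2.48-fold lower. The other probe set of Ndrg1 was dimmer and differed by -1.11 against -2.05. The letters ACGTG on either strand, the core of the hypoxia element, were in 60.5% of 38 promoter windows of this list and in 19.6% of all windows. Some genes have several windows, and by gene 21 of the 28 members with a window held a match.

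Receptors that sense attractants, lipids and acid separated the samples in both directions. Of 44 measured, 6 were at least 2-fold higher and 7 lower (18.2% higher and 21.2% lower of the 33 tested). Gpr65, a proton-sensing receptor, read 4.90, 5.67, 6.48 and 10.32 and was 14.2-fold higher. Cxcr4, the receptor for Cxcl12, read 6.47, 6.64, 7.90 and 10.88, and Ccrl2, which holds chemerin at the surface, 5.70, 5.45, 7.63 and 10.32. These 3 receptors read above the control with Dll1 and higher still in the tissue cell. The platelet-activating factor receptor Ptafr was 5.35-fold higher. The prostaglandin E receptor Ptger3, at 8.97, 8.73, 8.46 and 5.74, and the anaphylatoxin receptor C3ar1, at 8.05, 8.30, 8.18 and 5.74, were 6.58-fold and 5.42-fold lower.

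Of 19 Mas-related receptors, the family that includes the peptide receptors of connective tissue mast cells, 1 was higher and 1 lower (12.5% higher and 12.5% lower of the 8 tested). Mrgpra9 read 4.71, 8.30, 4.59 and 10.23, so it was high with TGF-beta1 and in the tissue and below background with Dll1 (at least 34.4-fold higher). Mrgpra4 read 11.09, 10.12, 8.0 and 6.12 and was 3.69-fold lower. Mrgprb2, the receptor for basic secretagogues, was below background on both arrays, at 5.01 and 4.55. Dpp4 (CD26), a surface peptidase that trims chemokines, was below background in all cultures and read 8.15 in the tissue (at least 8.11-fold higher). Of 21 nucleotide and adenosine genes, 2 were higher and 4 lower (11.8% higher and 23.5% lower of the 17 tested). P2ry14 and Entpd1, the latter an enzyme that degrades extracellular ATP, were 3.56-fold and 2.31-fold lower.

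Cytokine and chemokine genes differed in both directions. Of 56 measured, 10 were at least 2-fold higher and 5 lower (26.3% higher and 13.2% lower of the 38 tested). Tnf, a stored and secreted cytokine of mast cells, read 6.90, 6.34, 7.15 and 10.12 and was 7.82-fold higher. The T cell attractants Ccl5 and Ccl4 were 7.25-fold and 5.03-fold higher, and Il4, a type 2 cytokine, was 2.8-fold higher. Ccl2, which draws monocytes, read 9.60, 7.92, 9.95 and 6.13 and was 14.1-fold lower, and Lif was 4.99-fold lower. Of 41 cytokine receptors, 6 were higher and 6 lower (17.1% higher and 17.1% lower of the 35 tested). The decoy receptor Il1r2 and the interleukin-2 receptor beta chain Il2rb were 4.73-fold and at least 4.14-fold higher. The co-stimulatory receptor Tnfrsf9 (4-1BB), at 6.62, 7.91, 9.70 and 6.18, was 11.5-fold lower, and Il18rap and Il10ra were at least 5.79-fold and 4.37-fold lower.

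Lipid mediator synthesis held 1 higher gene and several lower ones. Ptgs2 (cyclooxygenase-2), the inducible prostaglandin synthase, was below background in all cultures and read 8.46 in intestinal cells (at least 10.1-fold higher). It was the 1 higher gene of 29 measured, and 4 were lower (4.35% higher and 17.4% lower of the 23 tested). Thromboxane synthase (Tbxas1) read 10.07, 9.98, 9.48 and 7.58 and was 3.74-fold lower. Pla2g7, which degrades platelet-activating factor, and Mgst2 were 2.4-fold and 2.74-fold lower, and the prostaglandin D synthase Hpgds read 8.13 with Dll1 and 8.96 in intestinal cells.

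Of 32 genes of IgE receptor signalling, 1 was higher and 3 lower (3.12% higher and 9.38% lower of the 32 tested), with a median of -0.14. The kinase Fyn was 3.18-fold higher, and the kinase subunit Pik3cd and the adaptors Gab2 and Lat2 were 2.99-fold, 2.76-fold and 2.47-fold lower. Of 37 degranulation genes, none was at least 2-fold higher and 3 were lower (none higher and 8.57% lower of the 35 tested), namely Mlph, Stxbp3 and Snap23 (2.58-fold, 2.36-fold and 2.19-fold). Of 37 genes of heparin and chondroitin sulfate synthesis, Ndst2 and the epimerase Dse (2.28-fold) were lower and none was higher. That was 6.06% lower of the 33 tested. Amine handling had 2 lower genes of 15 (none higher and 18.2% lower of the 11 tested). Monoamine oxidase B (Maob), which breaks down amines, read 11.09, 10.86, 10.91 and 7.31 and was 12.1-fold lower, and Slc18a2 has been given above.

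Of 36 inhibitory and paired receptors measured, 7 were at least 2-fold lower in intestinal cells and 3 higher (11.1% higher and 25.9% lower of the 27 tested). The Cd200 receptors Cd200r1, Cd200r3 and Cd200r4 were 3.8-fold, 10.9-fold and 6.44-fold lower and lie next to each other on chromosome 16. They resemble each other, which makes each level uncertain. The paired immunoglobulin-like receptor Pirb read 9.99, 9.42, 8.91 and 6.27 and was 6.2-fold lower, and Lilrb4a was 3.37-fold lower. The collagen receptor Lair1 was 3.07-fold higher. Among complement regulators and serpins, 3 of 20 were lower and none higher (none higher and 17.6% lower of the 17 tested). Cd55, which speeds the decay of complement convertases, read 9.73, 9.19, 8.71 and 4.76 and was at least 12.1-fold lower.

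Calcium-binding S100 proteins, annexins and galectins had the largest share of lower genes among the lists described. Of 19 measured, 11 were at least 2-fold lower in intestinal cells and none was higher (none higher and 61.1% lower of the 18 tested), with a median of -1.15 against -0.03 over all genes tested. S100a6 read 10.15, 7.75, 10.78 and 5.81 and was 31.2-fold lower, and S100a4 read 8.52, 6.28, 9.18 and 5.79 and was 10.5-fold lower. Galectin-1 (Lgals1) read 11.55, 10.09, 11.28 and 7.21 and S100a10 10.71, 10.25, 10.68 and 7.96. With TGF-beta1, S100a6 and S100a4 read between the control and the tissue, and the Dll1 level was above that of the control. Anxa1 and Anxa2 were 4.06-fold and 2.91-fold lower. S100a8 and S100a9, stored by neutrophils and their precursors, were above background on the Dll1 array alone and stand on the neutrophil list below.

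Immediate early and heat shock genes, which respond within minutes to stimulation, warming or handling, included many genes that were higher in the intestinal cells. Of 44 immediate early genes, 23 were higher by at least 2-fold and 1 was lower (52.3% higher and 2.27% lower of the 44 tested), with a median of 1.16. The phosphatase Dusp2 read 5.37, 5.42, 5.43 and 9.40 and was 15.6-fold higher, Atf3 read 5.19, 5.37, 5.62 and 8.96 and was 10.1-fold higher, and the AP-1 subunit Jun read 8.17, 8.61, 9.36 and 12.49. The inhibitors of NF-kappaB signalling Nfkbia and Tnfaip3 were 5.94-fold and 5.65-fold higher. Fos, Fosb and Nr4a1 were already above the control on the Dll1 array (Fos 5.17, 4.95, 7.07 and 8.29, Fosb 5.81, 5.12, 10.35 and 11.57), with intestinal cells a further 2.32-fold and 2.33-fold higher. The cytokine, TGF-beta and residency genes above share members with this list, and effects of tissue handling on them cannot be told apart from those of cell origin.

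Of 23 heat shock genes, 8 were up by at least 2-fold and none was lower (34.8% higher and none lower of the 23 tested), and the median was 0.84. The inducible chaperones Hspa1a and Hspa1b read 4.53, 4.61, 5.04 and 11.77 and 4.98, 4.90, 4.82 and 11.42, below background in every culture and at least 99.5-fold and at least 78.4-fold higher in the intestinal cells. Among the genes covered by the naming rule, Hspa1a had the widest gap of the comparison. The 2 genes are near-identical copies and can share probes. Their chaperone partners Hsph1, Dnajb1 and Bag3 were 5.87-fold, 3.86-fold and 2.33-fold higher. The constitutive Hspa8 read 10.35 with Dll1 and 11.21 in intestinal cells, under 2-fold. Its other probe sets differed by 1.03, 1.16 and 1.19, past 2-fold. Hspb1 was 3.31-fold higher, but its other probe set differed by -0.13.

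The promoters of 3 of these genes are printed because they carry the facing pair of heat shock units that the heat shock factor binds. The sequences are from RefSeq on GRCm38.p6, 5′ to 3′ on the strand of the gene, and cover the 160 bases before its start. Capitals mark GAANNTTC, a motif that reads the same on both strands. Hspa1a lies at chr17:34972157-34972316 and Hspa1b at chr17:34959239-34959398, both on the minus strand. Hspb1 lies at chr5:135887759-135887918 on the plus strand.
Hspa1a: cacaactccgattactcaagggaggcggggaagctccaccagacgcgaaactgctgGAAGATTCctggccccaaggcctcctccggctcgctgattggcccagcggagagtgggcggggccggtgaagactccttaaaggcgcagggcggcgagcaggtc
Hspa1b: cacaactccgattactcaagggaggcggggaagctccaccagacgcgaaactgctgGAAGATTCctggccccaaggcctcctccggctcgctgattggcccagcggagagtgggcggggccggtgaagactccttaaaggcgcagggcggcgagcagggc
Hspb1: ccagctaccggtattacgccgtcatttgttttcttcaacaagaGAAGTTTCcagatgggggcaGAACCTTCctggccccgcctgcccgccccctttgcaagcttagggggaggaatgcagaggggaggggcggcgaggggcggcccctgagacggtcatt
The Hspa1a and Hspa1b stretches differed at 1 of 160 bases, and in both the match began 104 bases before the start. Hspb1 held 2 matches, at 117 and 97 bases. Over windows from 250 bases before to 50 after the start, GAANNTTC was found in 11 of 25 windows of the heat shock list (44.0%) against 7.86% of all 32851 windows. Some windows of the list overlap and hold the same site, so these windows are not independent. By gene, 10 of the 20 list members with a window held a match. A match says only that these letters are present.

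Some chaperones of the endoplasmic reticulum were higher too. Of 29 unfolded protein response genes, 6 were higher by at least 2-fold and none was lower (20.7% higher and none lower of the 29 tested), and the median was 0.47. BiP (Hspa5), the main chaperone of that compartment, read 8.34, 8.75, 8.52 and 10.95 and was 5.38-fold higher. The stress factor Ddit3 (CHOP) was 5.5-fold higher, and Herpud1, Creld2, Dnajb9 and Sdf2l1 were between 2.34-fold and 2.69-fold higher. The transducers Xbp1, Atf6 and Ern1 differed by 0.05, -0.15 and 0.36.

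Some proliferation genes were higher in intestinal than in Dll1 cells. Of 44 cell cycle genes, 11 were higher by at least 2-fold and 3 were lower (25% higher and 6.82% lower of the 44 tested), with a median of 0.65. The proliferation marker Mki67 read 9.37, 9.85, 7.64 and 9.82 and the mitotic motor Kif11 7.57, 8.45, 6.90 and 8.77. For both genes the Dll1 level was the lowest of the 4. The replication licensing factors Cdc6, Mcm5 and Mcm4 were 2.97-fold, 2.95-fold and 2.47-fold higher. The brakes Cdkn1b and Cdkn2a were 2.01-fold and 2.22-fold lower, as was the cyclin Ccnd2 (2.35-fold).

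Of 28 sterol and fatty acid synthesis genes, 4 were higher by at least 2-fold and none was lower (14% higher and none lower of the 28 tested), and the median was 0.42. Insig1, a sterol sensor, read 8.73, 9.06, 7.19 and 8.82 and Hmgcs1, an early enzyme of the pathway, 8.96, 9.40, 7.67 and 8.92. For both, the intestinal level was close to that of control BMMCs and the Dll1 level was the low one. Respiratory chain genes did not separate the samples, with 42 of 42 less than 2-fold apart and a median of 0.09. Of 36 interferon response genes, 6 were higher and 3 lower (20.0% higher and 10.0% lower of the 30 tested). Oasl1 and the ubiquitin-like Isg15 were 5.97-fold and 3.72-fold higher, and Irgm2 was 2.59-fold lower.

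**Figure D4:**
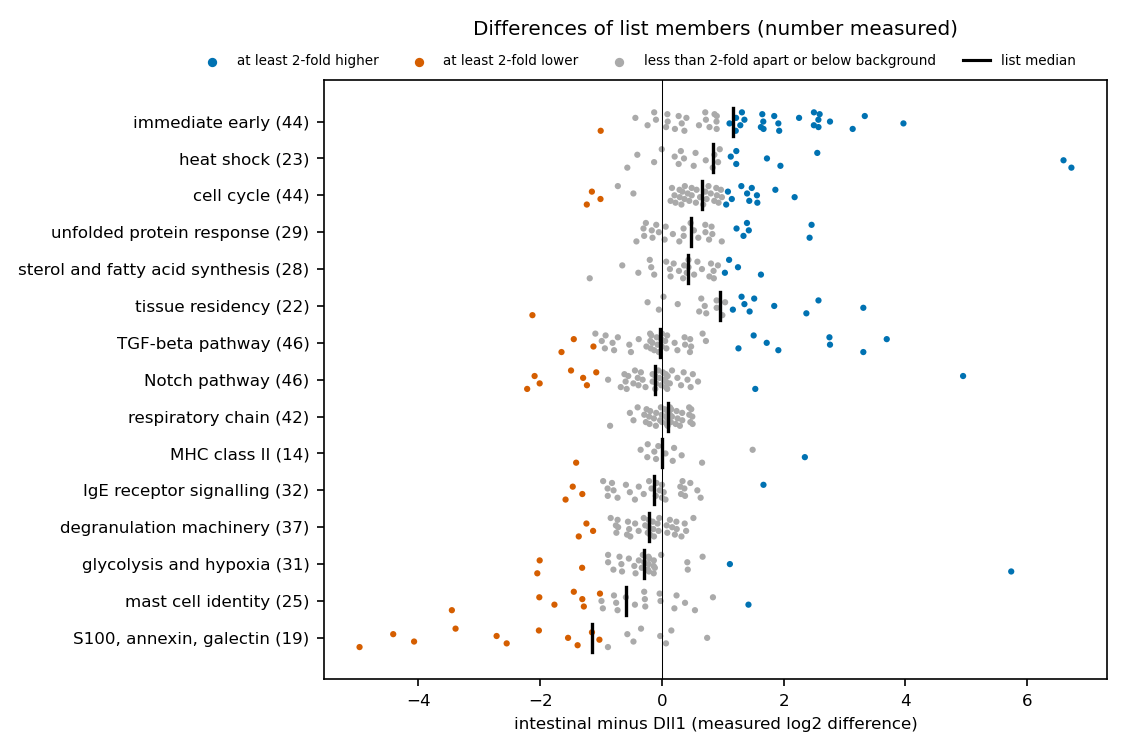
Measured log2 difference, intestinal minus Dll1 (horizontal), of each member of 15 gene lists (1 row each, with the number of genes measured), 1 array for each group. Blue and orange points are at least 2-fold higher or lower, grey points are not, and the black bar is the median. The immediate early list has a median of 1.16 and the S100, annexin and galectin list one of -1.15, while the respiratory chain list lies within 2-fold throughout.

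Some markers of other gut cells were above background in the intestinal sample. Of 17 T cell and innate lymphoid markers, 7 were higher by at least 2-fold and none was lower (53.8% higher and none lower of the 13 tested), and the median was 1.03. On the control, TGF-beta1, Dll1 and intestinal arrays, 6, 3, 5 and 13 of the 17 were above background. Their summed signal was 9.10, 8.99, 9.93 and 11.62 on the log2 scale. The T cell receptor chains Cd3g and Cd3e were below background in all cultures and read 8.84 and 7.53, and Cd8b1 read 7.31. Cd2, Cd28, Klrd1 and Klrb1c were below background on the intestinal array, and Cd4 read 5.32.

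Of 29 markers of intestinal epithelium, 7 were higher and none was lower (35.0% higher and none lower of the 20 tested), and the median was 0.64. The numbers above background were 5, 3, 6 and 20 on the control, TGF-beta1, Dll1 and intestinal arrays, and the summed signal was 9.74, 9.98, 9.94 and 11.44. Cdh1 led the list, followed by the immunoglobulin transporter Pigr (7.30), the mucin Muc2 (7.14) and the fatty acid carrier Fabp1 (6.73), whereas Epcam, Vil1, Krt19 and Sis were below background. Of 19 markers of macrophages and dendritic cells, 4 were higher and 1 lower (28.6% higher and 7.14% lower of the 14 tested). The complement chains C1qa and C1qb read 7.24 and 7.21 in intestinal cells, and C1qc, Mrc1, Cd163 and Zbtb46 were below background there. Itgax leads that list as well, with 8, 11, 11 and 14 of the 19 members above background in the order given and a summed signal of 10.87, 10.96, 10.76 and 12.20. Jchain of plasma cells read 6.99 (at least 3.64-fold higher), the 1 higher gene of 13 B and plasma cell markers. The part of such cells in the results above was not tested.

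Several genes of eosinophil and neutrophil granules were high on the Dll1 array. Of 8 eosinophil markers, 4 were at least 2-fold lower in intestinal cells and 1 higher (12.5% higher and 50% lower of the 8 tested). Major basic protein (Prg2) read 5.40, 4.75, 11.45 and 5.08 and was at least 80.8-fold lower. Its relative Prg3 read 4.68, 4.77, 9.55 and 4.80 and eosinophil peroxidase (Epx) 4.92, 4.71, 8.83 and 4.84. The eosinophil receptors Il5ra and Ccr3 read 4.92 and 5.58 on the Dll1 array. The summed signal of the list was 8.12, 7.89, 12.09 and 8.94 on the control, TGF-beta1, Dll1 and intestinal arrays, with 3, 2, 6 and 4 of 8 above background.

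Of 17 neutrophil and promyelocyte markers, 6 were lower and none was higher (none higher and 37.5% lower of the 16 tested), and the median was -0.99. Myeloperoxidase (Mpo) read 5.14, 5.23, 7.97 and 4.95, Ngp 4.70, 5.10, 7.87 and 4.58 and S100a8 4.58, 5.10, 8.85 and 4.44. Elane and Prtn3 were likewise highest on the Dll1 array. The summed signal was 9.23, 9.16, 11.13 and 9.14, with 7, 6, 15 and 6 of 17 above background in the order given. Ngp, S100a8 and Elane were above background on the Dll1 array alone, whereas Prtn3 was above it on all 4 arrays and Mpo just above it in the control and TGF-beta1 cultures. Whether they came from mast cells or from other bone marrow cells in the c-Kit selection was not tested.

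Of 29 genes of adherent cells, taken as a gauge of CHO RNA, 4 were lower in intestinal cells and none higher (none higher and 16.7% lower of the 24 tested), with a median of -0.16. The cytoskeletal protein Vcl read 10.99, 10.15, 10.11 and 7.17, so it was as high in control BMMCs as with Dll1. Igfbp4, Anxa2 and Dll1 were 2.99-fold, 2.91-fold and at least 3.96-fold lower. The list had 15, 14, 24 and 20 members above background and a summed signal of 12.17, 11.98, 12.08 and 11.48 on the 4 arrays. The array is designed for mouse, and how far hamster RNA binds its probes was not tested. Nidogen (Nid1), a basement membrane protein outside the list, was above background only on the Dll1 array, at 4.44, 4.46, 8.89 and 4.50 (at least 13.7-fold lower), and its other probe set differed by -2.30.

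**Figure D5:**
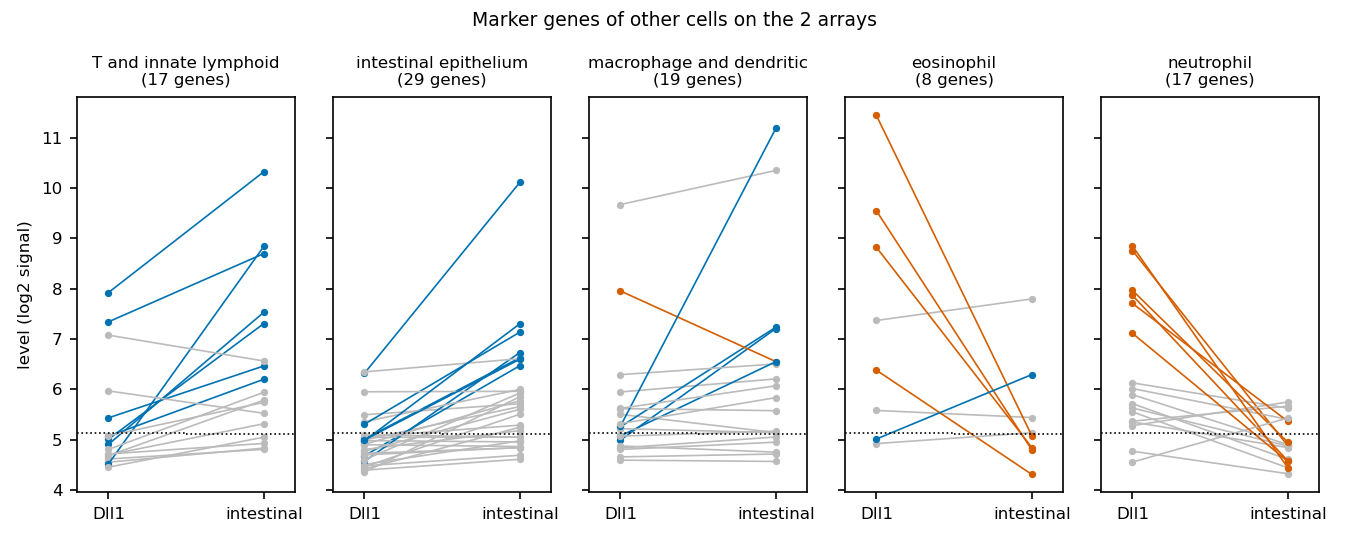
Levels (vertical, log2 signal) on the Dll1 and intestinal arrays of the markers of 5 other cell types, 1 line for each gene; blue and orange lines are genes at least 2-fold higher or lower in intestinal cells, and dotted lines are the background limits. Several lymphoid and epithelial lines rise towards the intestinal array, with Cd3g and Cdh1 the steepest, and several eosinophil and neutrophil lines fall towards it, such as Prg2 and S100a8.

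Several of the widest gaps lay outside the lists. Apol9b, of the apolipoprotein L family, read 4.76, 6.35, 4.96 and 9.92 and was at least 27.7-fold higher, though its near-identical relatives can share probes. The matrix protein Chad was below background with Dll1 and read 8.97 in intestinal cells (at least 14.4-fold higher). The protein kinase C isoform Prkch read 4.94, 4.69, 5.75 and 9.14 and the small GTPase Gem 5.28, 5.40, 5.80 and 9.38, 10.5-fold and 12-fold higher. Ankrd6 and Pi16, a peptidase inhibitor, were 10.2-fold and 9.33-fold higher.

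On the lower side, Igfbp5, which binds insulin-like growth factors, read 9.61, 9.42, 10.12 and 4.79 and was at least 32.2-fold lower. The receptor phosphatase Ptprg read 9.66, 9.21, 9.89 and 4.69 and was at least 27.5-fold lower. The orphan receptor Gpr176 read 10.29, 10.04, 10.20 and 6.18. These 3 genes were high in every culture. Aminopeptidase N (Anpep) was 15-fold lower, with levels of 11.91 and 8.0. Asphd2 read 9.32, 6.77, 9.35 and 5.36, so TGF-beta1 but not Dll1 lay part of the way to the tissue level.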

How the data were processed

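Total RNA of 4 mouse mast cell samples, 1 for each group, was amplified from 2 ng with the GeneChip WT Pico kit and hybridised to Affymetrix arrays, per the labels' protocols. The authors deposited 1 log2 value for each of 33793 probe sets and array. How the probes were summarised and normalised is not given in the sources used here, and the log base was taken from the range of the values. Ranked by size, the values of the arrays differed by a mean of 0.03 and a maximum of 0.25, and no normalisation was added. Precision is limited by the number of arrays, which have no read depth. The floor of the scale compresses the differences of dim genes.

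Gene symbols came from the platform annotation, which gave 23521 probe sets 1 symbol, 1814 several and 8458 none listed. For 1082 genes with several probe sets, the brightest by its mean on the 4 arrays was taken. The difference was the intestinal minus the Dll1 value. No test was possible with 1 array for each group. The size rule was checked on simulated data.

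Counts and medians are given for 47 gene lists with 1272 distinct genes, of which 102 could not be matched to a measured symbol. The lists, the comparison and the genes named were chosen with earlier results of these data known, so no count is independent support. The rule took the 15 highest and 15 lowest differences measured on both arrays, the 8 largest bounds each way, the 12 genes farthest above and the 12 farthest below all BMMC arrays, and 12 each way that were at least 4-fold from the control on both arrays and less than 2-fold apart. It also took up to 6 members of a list past 2-fold and any member of a list of 25 or fewer genes. Predicted genes, clone names, small RNAs and receptor segments were left out by symbol. Other members, such as Hes1, Notch2, Rbpj, Nrarp, the SMADs, Xbp1 and the markers below background, were named for their roles after their values were seen. One symbol shared with a transcription factor was dropped from the inhibitory receptor list.

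Alternatives were other scalings, the mean of the probe sets, 16 subtracted from each linear value as an offset, the 90th or 99th percentile or no background limit, and counts without the lists of other cells, feeder, immediate early and heat shock genes. Promoter windows (250 bases before to 50 after the start) came from RefSeq on GRCm38.p6. Analyses used Python 3.11.15, pandas 2.3.3, NumPy 2.4.6 and Matplotlib 3.10.9.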

Additional observations from a re-analysis of the deposited data

How the results depend on the processing

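The counts of genes at least 2-fold higher and lower stayed within 1.5 times of 464 and 539 under every alternative tried. Lower genes outnumbered higher ones in all of these except after array medians were subtracted, when 518 were higher and 490 lower. They ranged from 361 and 441 with the background limit at the 99th percentile to 690 and 789 after 16 was subtracted from each linear value as an offset. At 4-fold the same offset gave 148 higher and 183 lower genes against 86 and 115, and the other alternatives stayed within 1.5 times. The offset widens the differences of dim genes by its construction. Of the 1003 genes called, 954 (95.1%) were called in the same direction after array medians were subtracted, 987 (98.4%) after quantile normalisation, 955 (95.2%) with the mean of the probe sets and 1002 (99.9%) with the offset, and none was reversed. The arrays were already alike in scale, and the offset only widens differences. The mean of the probe sets alters only the 1082 genes with several of them. A call could thus hardly be reversed by these settings, and the kept calls say nothing about replicates. The share of higher genes among those called lay between 44.1% and 51.4%, against 46.3%. Of 235 list medians recomputed, 2 moved by more than 0.55. That yardstick is a spread for single genes and is larger than most list medians. A small median could therefore change sign without being counted as moved. No paired analysis was possible because the groups share only 1 replicate number and no test was made. Leaving out a replicate was not possible with 1 array for each group. Dim genes, which lie near the background limit on both arrays, can hide differences that the array does not resolve.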

Other observations

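Clock and pattern recognition genes were not described above. The clock gene Per1 read 7.64 with Dll1 and 9.25 in intestinal cells, and Hlf read 6.04 and 7.56. The clock list of 17 had 2 higher members and 1 lower (12.5% higher and 6.25% lower of the 16 tested). Per1 also responds to glucocorticoids, whose part here was not tested. Of 14 glucocorticoid response genes, 3 were higher and none lower (21.4% higher and none lower of the 14 tested). Clec7a (dectin-1), the receptor for fungal beta-glucan, read 5.03 and 7.78, at least 6.29-fold higher. The inflammasome sensors Nlrp3 and Nlrp6 were 3.81-fold and 2.54-fold lower, as 3 of 29 pattern recognition genes were. Among aryl hydrocarbon receptor and retinoid response genes, Nqo1 was 4.69-fold lower, Ahrr 2.36-fold lower and Cyp1b1 2.33-fold lower. The vitamin D receptor Vdr was 2.42-fold higher. This made 1 higher and 3 lower of 23 (5.56% higher and 16.7% lower of the 18 tested). Ahr itself read 9.53 and 10.17. The calcium channel Trpv2 read 9.61 and 6.93 (6.41-fold lower), and its other probe set differed by -0.74. Of 31 ion channel genes 1 was higher and 3 were lower (3.85% higher and 11.5% lower of the 26 tested). Among 39 lysosomal genes, 3 were higher and 1 lower (8.57% higher and 2.86% lower of the 35 tested). Of these, cathepsin W (Ctsw) was 3.18-fold higher and the sulfatase Ids 4.41-fold lower. Of 22 apoptosis genes 2 were higher and none lower (10.0% higher and none lower of the 20 tested). Among markers of other cells not given above, 1 of 11 for basophils was higher and 1 lower (10.0% each way of the 10 tested). For stroma and vessels, 1 of 20 was higher (Pdgfrb, 6.37 with Dll1 and 8.39 in intestinal cells) and 1 lower (Vwf, 2.51-fold). That was 11.1% each way of the 9 tested. None of 7 for red cells and platelets was called, with 4 tested.

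Genes that lie next to each other among the 13019 tested genes with a RefSeq position sometimes differed in the same direction. There were 74 runs of 2 or more, 32 higher and 42 lower, and 7 runs of 3 or more. The higher runs were Rgs2, Rgs13 and Rgs1 on chromosome 1, and Dleu2, Mir15a and Rnaseh2b on chromosome 14. The lower runs included Entpd1, Ccnj, Zfp518a and Blnk on chromosome 19, Cd200r1, Cd200r4 and Cd200r3 on chromosome 16, and Prg2, Prg3 and Tnks1bp1 on chromosome 2. How many such runs gene order alone gives was not tested.

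Probe sets that name no single gene stayed out of the comparison. Of 1814 with several symbols, 956 were above background on at least 1 array, with 27 at least 2-fold higher and 23 lower. Of 8458 not listed in the annotation, 2636 were above background, with 94 higher and 64 lower.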
